A study of Mus musculus with 2 samples.

Results

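Basal cells of the ventral prostate lobes were taken as the droplet barcodes of 1 single-cell RNA sequencing library that carried transcripts of the basal keratins Krt5, Krt14 and Krt15. A barcode stands for 1 captured droplet, which can hold a cell, more than 1 cell or free RNA, and a unique molecular identifier (UMI) marks 1 counted transcript. Barcodes were kept with at least 500 genes and at most 10% mitochondrial UMIs. A kept barcode became a member when Krt5, Krt14 and Krt15 together had at least 3 UMIs and at least 0.05% of its UMIs, while Sbp and Spink1, the main secretory transcripts of ventral luminal cells, together held at most 5%. This gave 142 members among 1995 kept ventral barcodes, a share of 7.12% (exact 95% interval 6.03 to 8.34%). Members were thus chosen by the measured keratin and secretory UMIs, and every value that sets them against other ventral barcodes is a description and carries no test.

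The tissue came from male C57BL6 mice, wild type in genotype, and was dissociated with papain and TrypLE. The series held 2 droplet libraries from 10x Genomics chemistry. The ventral lobes were prepared with the 3′ kit in version 2, the proximal and periurethral region in version 3. Each region thus had 1 library and no replicate, and the intervals given here cover counting error only. Wherever both libraries are set side by side, the region cannot be told apart from the kit version.

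Prostate epithelium has a layer of basal cells on the basement membrane beneath the secretory luminal cells. Basal cells are known for the intermediate filament proteins keratin 5 and keratin 14, for the transcription factor p63 (gene Trp63), and for hemidesmosomes, which anchor them to laminin in the basement membrane. Luminal cells of the ventral lobe make large amounts of secreted protein under androgen control, whereas luminal cells near the urethra carry Psca and Krt4.

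Members were shallow next to their neighbours. They held 1022 to 18970 UMIs with a median of 5089.5, against a median of 26540 in the 1853 remaining ventral barcodes, of which 1708, called secretory here, took over 5% of UMIs from Sbp plus Spink1. The median number of genes per member was 1678.5, and the median mitochondrial share was 1.84%. The 142 members held 802135 UMIs in all, out of 49356586 in the ventral library. No barcode sequence was shared with the proximal library.

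Each keratin of the rule was found at its own frequency. Krt15 had UMIs in all 142 members and 2756 UMIs per 1000000 of the barcodes' UMIs, against 7.08 in the remaining ventral barcodes. Krt5 had UMIs in 119 members and 712 per 1000000, against 1.04. Krt14 had UMIs in 69 members and 389 per 1000000, against 0.583. All 3 keratins were seen together in 65 members, Krt5 with Krt15 in 54, Krt14 with Krt15 in 4 and Krt15 alone in 19. Krt15 outnumbered Krt14 in 134 members, Krt14 outnumbered Krt15 in 6, and the pair tied in 2. None of the 3 had a UMI in 40 leukocyte barcodes of the same library, which allows a share of barcodes with a UMI of up to 7.5% at their median depth of 3714.5 UMIs. Here and below, the limit that a count of 0 allows is set at 3 counts of the group's total.

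The members nearest to the limits were few. Keratin UMIs per member ran from 3 to 83 with a median of 19, and 11 members had 3 to 5. Keratin shares ran from 0.0527% to 1.86%, with 8 members under 0.1%. On the other side, 145 kept barcodes with at most 5% Sbp and Spink1 were not members. Of these, 129 had no keratin UMI, 11 had 1 or 2, and 5 had 3 or more at a share of at most 0.0484%. No member lay within 1 percentage point of the secretory limit, since the highest had 3.70% of its UMIs from Sbp and Spink1. A further 10 kept barcodes passed the keratin limits with 5.23 to 49.1% of Sbp and Spink1 (median 40.2%, median depth 20358.5 UMIs) and stayed outside.

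The Sbp and Spink1 UMIs that members did hold were at the level of cells of other kinds in the same suspension. They made up 1.41% of the members' UMIs, 1.27% in leukocyte barcodes and 1.29% in 32 non-member barcodes with proximal luminal markers, against 44.2% over all kept ventral barcodes. The members' share was 3.18% of that of the library, and this percentage of a gene's share of all library UMIs, converted to a level without the rule genes, is its free RNA limit below.

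The label held for most members, but not for all. A second marker rule asked for at least 3 UMIs and at least 0.05% from Psca, Krt4 and Ppp1r1b, markers of proximal luminal cells. It was met by 12 of the 142 members (8.45%), and all 12 had Krt15 as their only rule keratin. Levels below are UMIs per 1000000 UMIs, leaving out the UMIs of the 5 genes of the keratin and secretory rule. In the 12, Wfdc2, a secreted protease inhibitor family member, stood at 4536 and the chemokine Cxcl17 at 1056, beside the marker rule's own Psca at 1598 and Ppp1r1b at 950. In the other 130 members, Wfdc2 stood at 94.8, and Cxcl17 had 8 UMIs, all in 1 member. Psca and Ppp1r1b had 2 UMIs each in the 130. Conversely, Trp63 and Krt17 had no UMI in the 12, which allows up to 26.6, and stood at 97.8 and 317 in the 130.

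Median depth also differed, with 9546 UMIs in the 12 (3927 to 18970) and 5037 in the 130 (1022 to 11478). Mitochondrial UMIs had a median of 5.25% (3.46 to 8.99%) and 1.79% (0.764 to 6.4%). Both ranges overlapped. Apoe, which encodes a lipid carrier, and Dcn, which encodes the proteoglycan decorin, differed between them too. Both had UMIs in 129 of the 130, and their summed UMIs per 10000 had a median of 166 and reached 441. The 1 member without either lay next to the limit of the marker rule, at 4.38 marker UMIs per 10000. In the 12 the same sum ran from 0 to 0.527 with a median of 0, and 11 of them had none. Between both sets, 222 of 5469 genes were at least 4-fold higher in the 130 (4.06%) and 419 were at least 4-fold lower (7.66%). These 12 meet the keratin rule but carry no Trp63 or Krt17, so list counts below whose number of genes past 4-fold changes without them are also given that way.

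**Figure D1:**
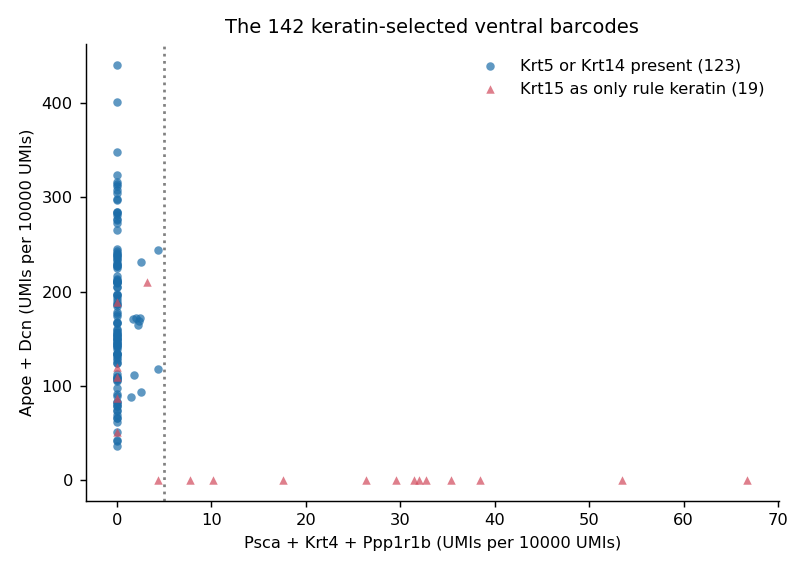
Each point is 1 of the 142 members. The horizontal axis gives the summed UMIs of Psca, Krt4 and Ppp1r1b and the vertical axis those of Apoe and Dcn, both per 10000 UMIs of the barcode. Circles have Krt5 or Krt14 UMIs, triangles have Krt15 as their only rule keratin, and the dotted line marks 0.05%. The 12 points right of the line lie at or near 0 on the vertical axis, and the points left of it lie between 36.3 and 441 except for 1 at 0.

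Most markers of other tissue cells were absent or low, with proximal luminal genes, decorin, smoothelin and 2 uroplakins as exceptions. Of 10 tested proximal luminal genes 8 were at least 4-fold higher in members than in the remaining ventral barcodes, and without the 12 members Ly6d and Krt7 were, of 7 tested. The summed level of that list ran from 97.4 to 236 UMIs per 10000 in the 12 and from 0 to 96.3, with a median of 4.66, in the 130. Dcn had 3511 UMIs in 129 members, but the fibrillar collagens that define fibroblasts were at or near 0: Col1a1 had 1 UMI in all members together, Col3a1 had 2, and Col1a2 had 0. Lum, a proteoglycan gene of the fibroblast list, had 0 as well. Of the 16 listed fibroblast genes, 10 had no UMI, and the summed level of the list ran from 0 to 178 UMIs per 10000 over members, carried by Dcn. No member had 2 UMIs in each of 2 collagen genes. Of the 15 leukocyte genes 13 had no UMI, Ptprc among them, and so had 7 of 10 endothelial genes, 8 of 10 neuroendocrine and glial genes and 7 of 7 seminal vesicle genes. The endothelial gene Pecam1 had 22 UMIs in members and was under 4-fold against the remaining ventral barcodes. Of 11 smooth muscle and pericyte genes 5 had no UMI, Des among them. Myh11 had 17 UMIs, and Smtn, the smoothelin gene, had 37 in 32 members and stood at 47.0 UMIs per 1000000 against 1.78 in the remaining ventral barcodes. Of 10 urothelial genes 4 had no UMI, and the summed level of the list had a median of 9.52 UMIs per 10000 in the 12 members with proximal luminal markers and 0 in the 130. The uroplakin gene Upk1a stood at 621 per 1000000 in the 12 and 19.3 in the 130, below its 469 in the remaining barcodes, and Upk1b had 39 UMIs. Of the 16 listed basal identity genes, which leave out the rule keratins, members held a median of 4 with a UMI (0 to 9). At least 3 such genes were seen in 118 members, while leukocyte barcodes held a median of 0 and at most 2.

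Promoters of 4 genes are shown because the first 2 belong to the keratins that define the members and the others to an adhesion receptor and a matrix protein that stood high in them. Each window holds the 250 bases before the RefSeq transcript start in the GRCm38.p6 build, written 5′ to 3′ on the strand of the gene. Capitals mark CATG, the core letters of a p63 site, or GCCNNNGGC, an AP-2 site. The windows are chr15:101712906-101713155 (minus strand) for Krt5, chr11:100206031-100206280 (minus) for Krt14, chr7:19770533-19770782 (minus) for Bcam and chr1:134037004-134037253 (plus) for Fmod.
Krt5: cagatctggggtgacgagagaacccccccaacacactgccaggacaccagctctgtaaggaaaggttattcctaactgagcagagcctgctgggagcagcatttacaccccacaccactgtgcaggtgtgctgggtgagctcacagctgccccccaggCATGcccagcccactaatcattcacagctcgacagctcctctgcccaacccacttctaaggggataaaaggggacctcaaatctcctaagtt
Krt14: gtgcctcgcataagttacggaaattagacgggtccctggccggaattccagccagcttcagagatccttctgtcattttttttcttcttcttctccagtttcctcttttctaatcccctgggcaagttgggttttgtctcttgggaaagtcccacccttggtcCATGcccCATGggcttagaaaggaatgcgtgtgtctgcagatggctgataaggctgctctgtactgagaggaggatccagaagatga
Bcam: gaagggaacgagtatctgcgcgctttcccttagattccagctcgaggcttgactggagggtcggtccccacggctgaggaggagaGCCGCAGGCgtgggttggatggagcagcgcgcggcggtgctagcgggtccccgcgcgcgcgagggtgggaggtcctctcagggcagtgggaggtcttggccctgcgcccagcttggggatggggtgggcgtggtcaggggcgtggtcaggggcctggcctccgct
Fmod: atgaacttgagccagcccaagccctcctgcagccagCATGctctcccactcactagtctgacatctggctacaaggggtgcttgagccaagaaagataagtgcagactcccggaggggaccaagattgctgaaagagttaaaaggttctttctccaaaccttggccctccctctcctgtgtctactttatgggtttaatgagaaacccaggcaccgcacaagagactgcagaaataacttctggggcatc
Krt5 and Fmod each held 1 CATG, Krt14 held 2, and Bcam held 1 GCCNNNGGC.

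These letters were common in promoters at large. CATG was found on either strand in 53.9% of the 32851 promoters searched, which left out those of 1 chromosome. The share was 40.3% in those of tested genes, 34.5% in 238 promoters of genes at least 4-fold higher in members and 47.3% in 184 of genes at least 4-fold lower. In the same order, the AP-2 letters were found in 13.7%, 21.5%, 22.7% and 20.1%, and the AP-1 letters TGANTCA in 6.75%, 4.23%, 8.40% and 5.98%. Each window shown held matches of 1 motif, so no 2 motifs overlapped. A match describes the letters and is no sign of binding. Krt15 and Trp63 had no entry.

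Against the remaining ventral barcodes, some genes of adhesion, matrix, contraction and p63-type identity were at least 4-fold higher in members, and some genes of secretion at least 4-fold lower. Ratios are log2 of the members' level plus a pseudocount of 10 over the other level plus 10, for genes whose levels averaged at least 20, so they understate the difference of low genes. Of 5305 genes, 241 were at least 4-fold higher in members (4.54%) and 176 at least 4-fold lower (3.32%), with a median log2 ratio over all genes of -0.04. Without the 12 members with proximal luminal markers, 249 of 5179 were higher (4.81%) and 249 were lower (4.81%). Against the secretory barcodes alone, 260 genes were higher (4.9%) and 187 lower (3.52%). Scaled to all UMIs, which Sbp and Spink1 dominate in the other barcodes, the median moved to 0.68, and 375 genes were higher and 72 lower, so that higher genes made up 83.9% of those past 4-fold and not 57.8%. The balance turned the other way with a pseudocount of 50, with 55 higher and 63 lower (46.6% higher), after thinning to 1000 UMIs, with 226 and 282 (44.5%), and after subtracting 20% of UMIs as free RNA, with 276 and 313 (46.9%).

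Apoe led the list at 10335 UMIs per 1000000 against 121 (log2 ratio 6.30). Per member it ran from 0 to 342 UMIs per 10000 with a median of 110, and of the 12 members without it 11 had proximal luminal markers. Leukocyte barcodes also held Apoe, with UMIs in 25 of 40 and a level of 13380 per 1000000 (12823 to 13955), above that of members. Dcn stood at 4457 against 112 (5.19) and had no UMI in leukocyte barcodes. Tgm2, the protein-crosslinking enzyme transglutaminase 2, stood at 641 against 2.76 (5.67). It was found in 122 members, or 47.9% of them after each barcode was thinned to 1000 UMIs, and in 5.0% of leukocyte barcodes thinned alike.

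The other leading genes had like profiles. The copper-binding ferroxidase gene Cp stood at 583 against 2.65 (5.55), the matrix protein gene Spon2 at 528 against 1.85 (5.50), and the sulfotransferase gene Sult5a1 at 484 against 1.51 (5.42). The tropomyosin gene Tpm2 at 373 against 1.51 (5.06), and the fibromodulin gene Fmod at 347 against 0.946 (5.03). Gas6, a ligand of TAM receptors, had a log2 ratio of 4.97, Lcn2, an iron-siderophore carrier, 4.74, and Pltp, a phospholipid transfer protein, 4.70. Of these 8 genes Gas6 stood at 115 in the 12 and 550 in the 130, and the others had no UMI in the 12.

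**Figure D2:**
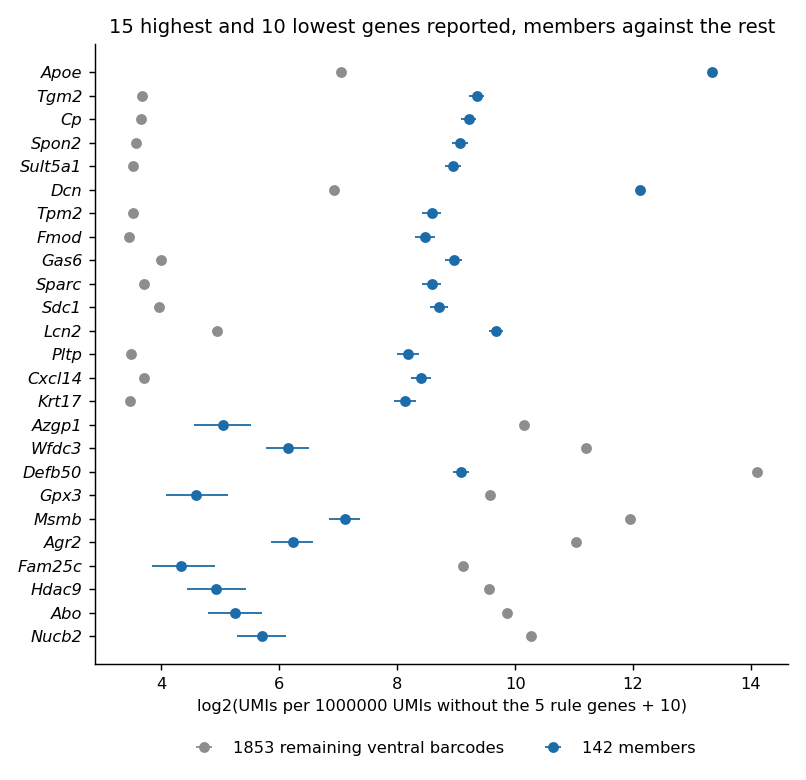
Levels of the 15 highest and 10 lowest genes reported, in the 142 members and in the 1853 remaining ventral barcodes, as log2 of UMIs per 1000000 UMIs without the 5 rule genes plus 10. Bars are exact 95% intervals of the summed counts. Apoe and Dcn stood highest among the upper 15 in both groups, and Defb50, at 531 in members, stood above the other 9 of the lower genes.

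Most tested genes of the basal identity list, which leaves out the rule keratins, stood at least 4-fold higher. Of 11 tested genes of that list 6 were at least 4-fold higher and 0 lower, with a median log2 ratio of 2.74, and without the 12 members with proximal luminal markers the count was 7 of 12. Trp63 stood at 83.8 (64.8 to 107) against 0.643 (log2 ratio 3.14). It had UMIs in 46 members (32.4%) and in none of the leukocyte barcodes, and in 6.34% of members after thinning to 1000 UMIs, so that the share depends on depth. Krt17, a keratin of basal and stressed epithelium, stood at 272 against 1.06 (4.67) and had UMIs in 65 members. The cell-cycle adaptor gene Sfn had a log2 ratio of 2.74. The desmosome gene Pkp1 (2.84) rested on 1 barcode, which held 77.4% of its UMIs.

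Adhesion to the basement membrane was represented by receptors and by their ligands. In the hemidesmosome and integrin list 6 of 19 tested genes were at least 4-fold higher and none lower, with a median of 1.44, and 7 of 18 were higher without the 12 members. The syndecan Sdc1 stood at 410 against 5.49 (4.76), the laminin receptor Bcam at 246 against 4.12 (4.18), and the laminin-332 chains Lamb3 at 127 (3.61) and Lama3 at 40.6 (2.28). The integrins Itga3 (2.19) and Itgav (2.08) also passed 4-fold. The hemidesmosome integrin genes Itga6 (1.40) and Itgb4 (1.66) did not, with the remaining barcodes at 44.8 and 11.7. Without the pseudocount the ratio of Itgb4 was 5.00 (3.58 to 6.83), against a reference of mostly secretory barcodes. Itgb4 also had UMIs among the 12 members and among the 32 non-member barcodes with proximal luminal markers, so it was not particular to the other members. Col17a1, the transmembrane collagen of hemidesmosomes, had 31 UMIs and was too low to test among the 142, and reached 2.43 in the 130.

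Most tested genes of the matrix list, many of them known from stroma as well as from basement membrane, stood at least 4-fold higher in members. In that list 7 of 10 tested genes were higher and none lower (median 2.53), and 8 of 11 without the 12 members. Besides Dcn they were Sparc, a collagen-binding matrix protein, at 374 against 3.10 (4.88), the basement membrane collagens Col18a1 (4.55), Col4a2 (2.45) and Col4a1 (2.36), the protease inhibitor Timp3 (3.04) and the protease Adamts1 (2.61). The small leucine-rich proteoglycan Prelp stood at 234 against 1.17 (4.45). Sparc, Col18a1, Col4a1 and Col4a2 had no UMI in the 12.

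Contractile genes stood high in part of the members. Of 12 tested genes of the list 8 were at least 4-fold higher (median 2.54), also without the 12. Tpm2 was joined by the calponins Cnn2 (4.06) and Cnn3 (2.57), the filamin Flna (2.99), Tpm4 (2.83), Tpm1 (2.30) and the myosin light chain Myl9 (2.51). Acta2, smooth muscle actin, had a log2 ratio of 3.56 but was found in 17 members, and 3 of them held 48 of its 92 UMIs. In those 17 members the smooth muscle genes Myh11, Des, Actg2 and Cnn1 together had 8 UMIs, and in all members 19. The part that other cells in the same droplet play in these Acta2 counts was not tested.

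Among other cytoskeletal and membrane genes, 6 of 16 tested annexin, S100 and galectin genes were at least 4-fold higher, with a median of 1.78, and 4 of 15 without the 12 members. S100a10, the partner of annexin A2, stood at 1163 against 59.4 (4.08) and had UMIs in 141 members. Lgals7, galectin 7 of stratified epithelium, stood at 232 against 2.0 (4.34). S100a6 stood at 688 against 18.8 (4.60), but its level in the 12 was 2823 and in the 130 was 332. Anxa1 showed the same split more sharply, at 3320 in the 12 and 133 in the 130.

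Luminal keratins and junction genes were present in members too. Krt8 and Krt18, the keratins of simple epithelium, stood at 830 and 837 against 672 and 1263 (log2 ratios 0.30 and -0.59), and had UMIs in 133 and 136 members. In the junction list 1 of 16 tested genes was at least 4-fold higher and 3 lower, with a median of -0.44. The higher gene was the P-cadherin gene Cdh3 (2.78), and the lower ones were the claudins Cldn3 (-2.63) and Cldn10 (-2.60) and the connexin Gjb2 (-2.17). Without the 12 members these ratios became -4.73 for Cldn3 and -4.40 for Cldn10, while Gjb2 had 1 UMI. Claudin 4 went the other way, with Cldn4 at 546 against 217 (1.29).

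**Figure D3:**
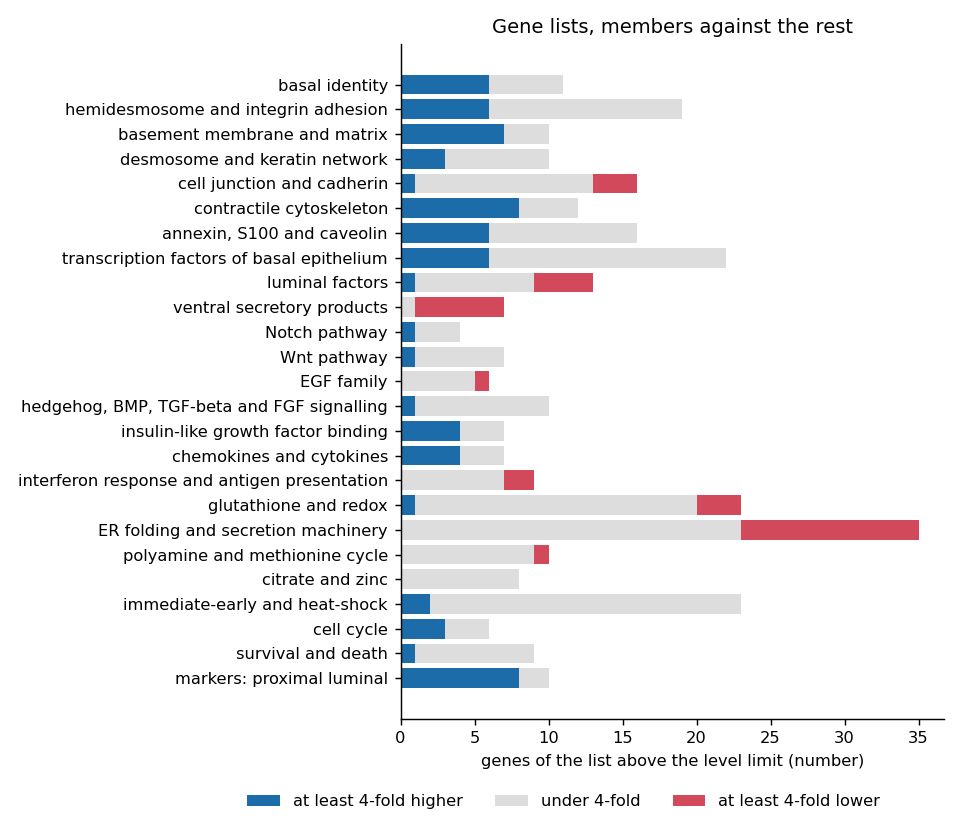
Genes of each list above the level limit, by whether they stood at least 4-fold higher, at least 4-fold lower or neither in the 142 members against the 1853 remaining ventral barcodes. The horizontal axis counts genes. The matrix and contractile lists had 7 of 10 and 8 of 12 genes higher, and the endoplasmic reticulum list had 12 of 35 lower.

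Transcription factors of basal epithelium were higher in 6 of 22 tested cases and lower in none, with a median of 1.14. The higher ones were Id1 (3.56), Meis2 (3.15), Trp63 (3.14), the AP-2 gamma gene Tfap2c (3.12), Id3 (3.02) and Sox4 (3.0). Meis2 lay at 604 in the 12 and 47.4 in the 130, and its ratio without the 12 was 1.90. Etv4 passed 4-fold without the 12, so the count stayed at 6 of 22. Tfap2c lay at 17.8 and 123. Other factors of squamous epithelium, such as Klf5 (135) and Runx1 (68.5), owed much of their level to the 12, with 577 and 293 there and 60.7 and 31.1 in the 130.

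Several genes of luminal cells were lower in members. In the list of luminal factors 4 of 13 tested genes were at least 4-fold lower and 1 higher, with a median of -1.32, and without the 12 members 4 of 12 were lower and none higher. The lower ones were the androgen-induced secretory gene Pbsn (-4.54), the prolactin receptor Prlr, and the factors Spdef and Creb3l4. Spdef had 3 UMIs (ratio 0.0476, interval 0.00980 to 0.139) and Creb3l4 had 1 (0.0269, 0.000681 to 0.150). Prlr had no UMI in members against 173, so that it was at least 45.5-fold lower. The homeobox gene Hoxb13 stood at 241 against 849 (-1.77). Hoxd13 was higher, at 44.4 against 2.27 (2.15), and 1.94 without the 12, below the level limit.

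Summed over members, secretory products were mostly at least 4-fold lower, at levels 1.06 to 1.86 times their free RNA limits for the 5 genes given here. Of 7 tested products 6 were at least 4-fold lower and none higher, with a median of -4.54. The defensin gene Defb50 stood at 531 against 17523 (-5.02), with a free RNA limit of 308. Msmb stood at 128 against 3932 (-4.83) with a limit of 69.1, Azgp1 at 22.8 against 1128 (-5.12) with a limit of 19.8, and Agr2 at 64.7 against 2075 (-4.80) with a limit of 36.5. The antioxidant gene Gpx3 stood at 14 against 751 (-4.99), with a limit of 13.2. The counting intervals of Azgp1, 13.5 to 36.1, and Gpx3, 6.97 to 25, held their limits, and those of the other genes lay above. The limit rests on Sbp and Spink1, which the rule capped in members. With the 2.88% that leukocyte barcodes gave, the limit was 278 for Defb50, 62.5 for Msmb and 33.0 for Agr2. A single member held 39.6% of the Msmb UMIs, with 87.4 Msmb and 153 Defb50 UMIs per 10000, against at most 12.7 and 44.9 in any other member.

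Some genes of the machinery of secretion were at least 4-fold lower as well. In the list of endoplasmic reticulum folding and secretion 12 of 35 tested genes were at least 4-fold lower and none higher (median -1.50), and 15 of 35 without the 12 members. Sec11c, a signal peptidase subunit, stood at 92.7 against 1424 (-3.80), the stress-induced Herpud1 at 59.7 against 739 (-3.43) and the chaperone cofactor Creld2 at 17.8 against 254 (-3.25). The chaperone Hspa5 stood at 663 against 1887 (-1.50). Metallothionein Mt1 stood at 1337 against 7214 (-2.42) and the peroxiredoxin Prdx6 at 232 against 1595 (-2.73), while the glutathione transferase Gsto1 was higher at 382 against 57.3 (2.54). Of 10 tested polyamine and methionine genes 1 was lower, the S-adenosylmethionine synthetase Mat2a (-2.53), which lay at 0.11 against remaining barcodes with at most 5% Sbp and Spink1, and of 8 citrate and zinc genes none passed 4-fold.

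Ligands of 3 signalling pathways passed 4-fold, namely Pdgfa, Jag2 and Wnt4. Pdgfa, the A chain of platelet-derived growth factor, stood at 543 against 22 (4.11) and had UMIs in 118 members. The Notch ligand Jag2 stood at 48.2 against 0.757 (2.44), while Notch1 lay at 53.3 against 17.1 (1.22) and the Notch target Hes1 at 1919 against 1634 (0.23). Wnt4 stood at 174 against 14.6 (2.90), and the receptors Fzd1 (1.92) and Lrp5 (1.46) stayed under 4-fold, although Fzd1 reached 2.03 without the 12 members. In the epidermal growth factor family Egf was lower (-3.70), the receptor Erbb4 lay at -1.80 and at -2.85 without the 12, and Egfr stood at 39.4 against 6.51 (1.58). Shh had 19 UMIs in 15 members and was too low to test. In all, 1 of 4 tested Notch genes and 1 of 7 Wnt genes were at least 4-fold higher and none was lower. In the list of hedgehog, BMP, TGF-beta and FGF signalling, where Pdgfa was also placed, Pdgfa was the 1 gene of 10 past 4-fold. Without the 12 members the Wnt count was 2 of 7.

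Secreted binding proteins and chemokines were also among the higher genes. Of 7 tested genes of the insulin-like growth factor list 4 were higher: Igfbp5 at 141 (3.13), Igfbp4 at 80.0 (2.92), Igfbp2 at 43.2 (2.40) and Igfbp7 at 95.2 (2.24). Igfbp7 depended on the 12, with 533 there, 22.2 in the 130 and a ratio of 0.53, below the level limit, without them, which left 3 of 6 genes higher. Its ratio was -0.72 against remaining barcodes with at most 5% Sbp and Spink1 and -0.30 after thinning. Of 7 tested chemokine genes 4 were higher: Cxcl14 at 330 (4.70), Cxcl12 at 86.3 (3.18), Cxcl10 at 248 (2.47) and Cxcl1 at 121 (2.44). Cxcl12 and Cxcl14 had no UMI in the 12. Of 9 interferon and antigen presentation genes 2 were lower, Cd74 with 2 UMIs in members (ratio 0.0219, interval 0.00265 to 0.0792) and Bst2 (-2.24). Without the 12 members Ifi27, at 28.1 against 147 (-2.05), made it 3 of 9. Leukocyte barcodes are part of the reference for Cd74 and held it at 17573.

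Immediate-early genes, which cells induce rapidly on stimulation, were high in both groups. Fos stood at 3109 against 957 (1.69), Jun at 2208 against 1161 (0.92) and Atf3 at 1310 against 958 (0.45). Of 23 tested genes of the list Ier5 (2.58) and Ier3 (2.51) passed 4-fold. In the cell cycle list Ccnd2, cyclin D2, stood at 366 against 14.9 (3.91), and the cyclin-dependent kinase inhibitor Cdkn1c at 91.4 against 7.38 (2.54). The proliferation genes Mki67 or Top2a had a UMI in 2 members and in 272 of the remaining barcodes, which were deeper.

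The same keratin rule was applied to the proximal library, whose values did not choose the genes. It selected 1666 of 3709 kept barcodes, and 804 of these also met the proximal luminal marker rule, so 862 remained without those markers. Of the 1666 against the other 2043 proximal barcodes, 22 of 5763 genes were at least 4-fold higher (0.382%) and 104 lower (1.8%). For the 862 against the same 2043, with the 804 in neither group, the counts were 114 of 5772 (1.98%) and 147 (2.55%). Of the 249 genes higher in the 130 ventral members, 69 were also higher in the 862, which is 27.7% of the ventral and 60.5% of the proximal genes. Of the 199 of the 249 tested there, 181 (91.0%) lay above 0, against 43.2% of the 4396 genes tested in both libraries. Of the 249 lower genes 76 were shared, which is 30.5% of the ventral and 51.7% of the proximal genes, and 182 of 189 tested there (96.3%) lay below 0, against 56.8% of the genes tested in both libraries. Under the keratin rule alone, 12 of the 241 higher genes were shared, which is 4.98% of the ventral and 54.5% of the proximal genes.

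Of the 15 leading ventral genes, 9 were also at least 4-fold higher in the 862 than in the 2043 proximal barcodes outside the keratin rule. The 804 barcodes with proximal luminal markers were in neither group. Krt17 had a log2 ratio of 5.21 there, Sult5a1 3.97, Cp 3.74, Apoe 3.69, Lcn2 3.28, Fmod 3.23, Sdc1 2.64, Tpm2 2.61 and Spon2 2.28, beside 2.84 for Trp63 and 2.52 for Bcam. Tgm2 (1.85), Pltp (1.83), Gas6 (0.74), Cxcl14 (-0.12), Sparc (-0.31) and Dcn did not pass. Dcn reached 1.23, with the 2043 at 656. Among these 2043, 411 had at least 2 UMIs in each of 2 collagen genes, with a Dcn level of 6331. Without the 411 in the reference the ratio was 3.89, while 11 of the 862 that met the same rule were kept. That reference was chosen after seeing the data. The 862 held Trp63 at 66.5 and the 130 at 97.8, a log2 difference of 0.49. Azgp1 (-4.39) and Defb50 (-4.98) were lower in the proximal library as well.

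**Figure D4:**
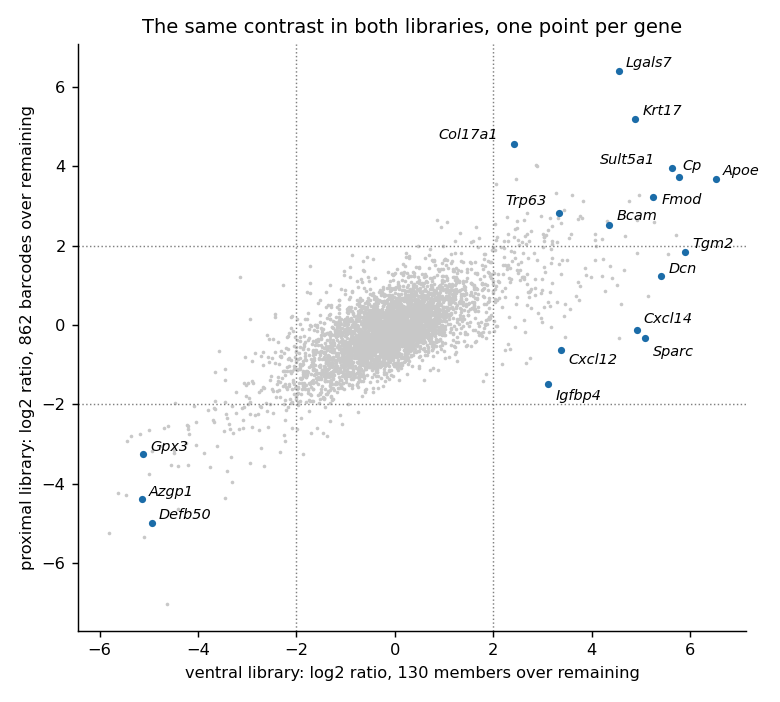
Each point is 1 gene tested in both libraries. The horizontal axis gives the log2 ratio of the 130 ventral members without proximal luminal markers over the remaining ventral barcodes. The vertical axis gives that of the 862 proximal barcodes over the 2043 outside the keratin rule. Dotted lines mark 4-fold, and blue points are named in the text. Krt17 lies past 4-fold on both axes, while Sparc, Cxcl14, Cxcl12 and Igfbp4 lie past 4-fold on the ventral axis and below 0 on the proximal one.

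The keratins that chose the barcodes are given for both libraries as a description. Krt14 stood at 453 per 1000000 of all UMIs in the 130 and 1105 in the 862, and had UMIs in 53.1% and 78.7% of barcodes at median depths of 5037 and 11788.5. Krt5 stood at 830 and 596, and Krt15 at 2984 and 3959. The rule set the same minimum UMI count in both libraries at these different depths, so nothing is read from these levels.

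Set directly against the 1666 proximal barcodes, 61 of 5500 genes were at least 4-fold higher in the 142 members (1.11%) and 244 lower (4.44%). Between the 130 and the 862 the counts were 32 of 5328 (0.601%) and 294 (5.52%). Among genes higher in the 130, Spon2 stood at 616 against 56.5 (log2 ratio 3.23), the iron carrier gene Trf at 156 against 8.51 (3.16), Tgm2 at 748 against 84.9 (3.0) and Cxcl14 at 385 against 51.6 (2.68). G0s2 (2.50), Igfbp4 (2.41), Lcn2 (2.39), Prelp (2.26) and Fmod (2.02) also passed 4-fold.

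Lower genes in the ventral members began with Cmss1 at 38.5 against 2113 (-5.45) and the nuclear RNA Neat1 at 47.4 against 1721 (-4.91). Thsd7a had 4 UMIs in the 130, at 5.93 against 354 (ratio 0.0167, interval 0.00456 to 0.0429). The matrix glycoprotein gene Thbs1 stood at 50.4 against 680 (-3.51), Plaur, the urokinase receptor, had a ratio of -3.57 and the squamous envelope gene Sprr1a one of -2.77. Nipal1 had no UMI in the 130, which allows up to 4.44, and stood at 63 in the 862. Tgm4, a transglutaminase of prostate secretion, had no UMI in the 142 members and stood at 205 in the 1666. All 6 secretory products tested in the proximal library, Tgm4 among them, were at least 4-fold lower in the 1666 than in the other proximal barcodes. The part of free RNA in the 205 was not tested. The 130 were shallower than the 862, at the median depths given above.

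**Figure D5:**
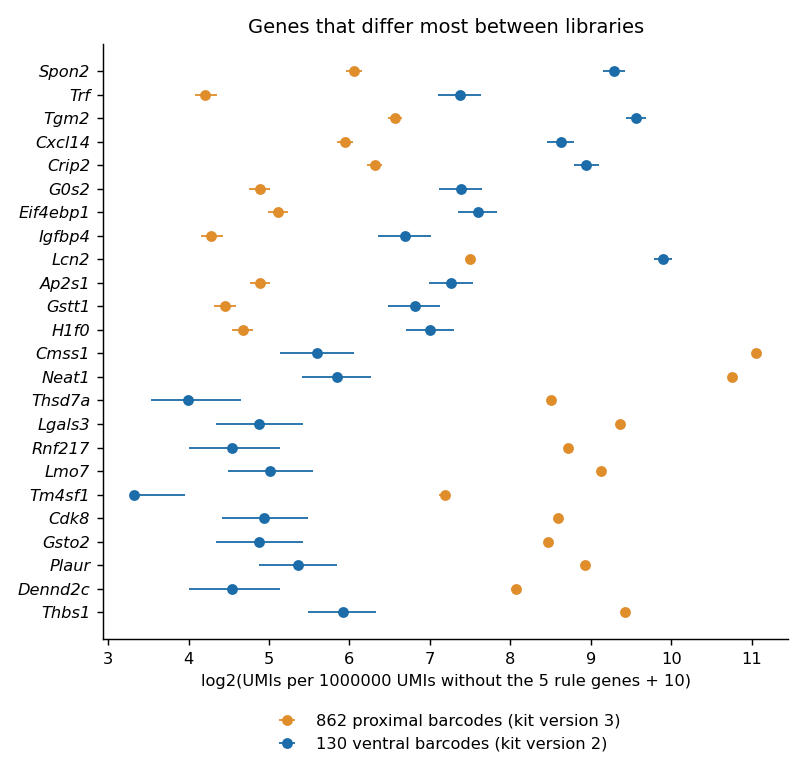
Levels of the 12 highest and 12 lowest genes by ratio in the 130 ventral members and the 862 proximal barcodes, both without proximal luminal markers, as log2 of UMIs per 1000000 UMIs without the 5 rule genes plus 10. Bars are exact 95% intervals of the summed counts. The genes were chosen by their ratio, so that the intervals of the libraries lie apart by choice, and the libraries also differ in kit version.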

How the data were processed

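Dissociated ventral and proximal prostate tissue was profiled in 1 library each, with a target of 5000 cells per the labels' protocols. The deposited matrices give unnormalized UMI counts for each gene in each barcode, made by the authors with Cell Ranger 7.0.0 on the mm10 genome, per the submitters' processing notes. The annotation release is not given in the sources used here. No doublet caller was run, and barcodes carrying markers of another class were reported separately.

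UMIs of each group were summed with Python 3.11.15, numpy 2.4.6, scipy 1.17.1 and pandas 2.3.3, and drawn with matplotlib 3.10.9. Levels are per 1000000 UMIs without Krt5, Krt14, Krt15, Sbp and Spink1, ratios use a pseudocount of 10, and genes with a mean level of at least 20 were compared at 4-fold. Counts have exact Poisson intervals, shares exact Clopper-Pearson intervals and ratios intervals from the exact binomial split of both counts, at 95%. Leukocyte barcodes needed 3 UMIs and 0.05% from Ptprc, Tyrobp, Cd52, Coro1a and Laptm5. Shares with a UMI were also thinned to 1000 UMIs. Ratios and their intervals were tested on simulated pools of counts, with a pseudocount of 1. Membership, marker rules, free RNA limits and thinning were not simulated. Promoters came from RefSeq in the GRCm38.p6 build, and gene symbols from the files.

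Genes were named as the 15 highest and 10 lowest ratios with at least 30 UMIs in the higher group and at most 20% of them in 1 barcode, up to 4 genes by absolute ratio in each list, 8 in each direction between libraries, and genes of lists that define a cell type. Other genes of the lists, Neat1 and genes that separate the 12 members were named after their values were seen. Some genes are not reported here, and the lists and marker rules were used without them. The members and lists were chosen with earlier results of these data known. Alternatives covered filters, keratin and secretory limits, scaling, pseudocount, reference barcodes, free RNA and depth. With 1 library per region no p-values are given.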

Additional observations from a re-analysis of the deposited data

Results flagged for a closer look

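Of the 165 genes at least 4-fold higher in the ventral members and tested under the same keratin rule in the proximal library, 23 were found on the other side of 0 there, 8 of them by at least 2-fold. The 4 of these 8 that were named by rule are given here, and the difference between the libraries was not tested. Sparc had a log2 ratio of 4.88 among ventral barcodes and -1.66 among proximal ones, Cxcl14 4.70 and -1.22, Cxcl12 3.18 and -1.69, and Igfbp4 2.92 and -2.0. With the 862 proximal barcodes that lack proximal luminal markers the proximal ratios were -0.31 for Sparc, -0.12 for Cxcl14, -0.62 for Cxcl12 and -1.49 for Igfbp4.

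The remaining proximal barcodes held 411 with at least 2 UMIs in each of 2 collagen genes, and these carried Sparc at 1666, Cxcl14 at 561, Cxcl12 at 748 and Igfbp4 at 406. In the ventral library 2 remaining barcodes met the same collagen rule. Of the 862 barcodes, 11 met the collagen rule as well and were kept. Without the 411 in the reference the proximal ratios of the 862 were 2.55 for Sparc, 1.84 for Cxcl14, 1.89 for Cxcl12 and 0.04 for Igfbp4. This last reference was chosen after seeing the data.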

How the results depend on the processing

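The share of members was 5.81% with at least 10 keratin UMIs and 5.71% with at least 0.2%. Genes higher in members numbered 375 on levels per 1000000 of all UMIs, 55 with a pseudocount of 50, 127 with a level limit of 50 and 147 against remaining barcodes with at most 5% Sbp and Spink1. Lower genes numbered 108 with no secretory limit, 72 on all UMIs, 308 and 63 with pseudocounts of 1 and 50, 313 after subtracting 20% free RNA and 282 after thinning. In the proximal library higher genes numbered 44 and 4 with pseudocounts of 1 and 50, 14 with a level limit of 50, 38 with at least 0.2% keratin and 114 without proximal luminal markers. Lower genes numbered 41 with a pseudocount of 50, and 169 with barcodes weighing the same. Between libraries, higher genes numbered 142 and 15 and lower ones 468 and 53 with pseudocounts of 1 and 50, and higher genes numbered 37 without such markers in the proximal and 32 in either library. The named genes past 4-fold changed sign in 4 of 2296 values, and sign changes of the other named genes were not counted. The 4 were Igfbp7 at -0.72 against barcodes low in Sbp and Spink1 and -0.30 after thinning, Mat2a at 0.11 against the former, and Psca at -0.54 without members with proximal luminal markers. Of 82 named genes past 4-fold, 38 stayed past it under all 28 alternatives. Except for the share of members, the cause was not tested. Depth limits shares: Trp63 was seen in 6.34% of members at 1000 UMIs, 15.7% at 2000 and 32.4% unthinned. No paired analysis was possible because each region has 1 library and no replicate numbers.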

Other observations

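The 6 members in which Krt14 outnumbered Krt15 had a median depth of 4806 UMIs and none met the proximal luminal marker rule. Against the 134 in which Krt15 led, 2 of 1424 genes with at least 60 UMIs over both were at least 4-fold higher and 80 were at least 4-fold lower, most of these 1424 being sparse in 6 barcodes. A count of 0 in the 6 could give a lower call by itself. Mrpl20, with 0 against 80 UMIs, had a ratio interval of 0 to 1.12, so nothing is read from the balance of these counts. All 12 members with proximal luminal markers were among the 134, and against the other 122 the counts were 2 and 39 of 1146 genes. Scpep1 stood at 667 against 60.1, with 57.1% of its UMIs in 1 of the 6 barcodes, and the defensin gene Defb1 at 635 against 128. Sfn stood at 953 against 241 (log2 ratio 1.94) and Krt17 at 794 against 251 (1.62), both under 4-fold and with 40% and 32% of their UMIs in 1 of the 6. Before filtering, 1 further ventral barcode met the keratin and secretory limits, at 797 UMIs, and was left out for its number of genes.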
